A study of Homo sapiens with 20 samples.

Results

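K562 is a human erythroleukemia line that can be pushed towards red cell or megakaryocyte features. The comparison described here sets K562 cells that lost a first silencer region by CRISPR excision (S1KO) against K562 cells that lost a second one (S2KO), with n = 2 libraries in each group. These 4 libraries are part of a series of 20. Also used for reference are K562 cells without either region (DKO, n = 2) and K562 cells that carried the empty vector (EV, n = 2), which the labels give as untreated. All 4 groups share the parental line, and the members of a group were chosen by their labels alone. The labels call the libraries of a group replicates and the design text calls them biological replicates. They do not say whether a group is 1 clone or a pool. An effect of the excised region and a difference between cells that were derived separately therefore cannot be told apart here.

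Silencers are stretches of DNA that hold down the genes they contact, often with histone methylation by Polycomb repressive complex 2 or with the repressor REST, which keeps neuronal genes off in other tissues. A cluster of silencers is called a super-silencer, and the pair removed here is known to lie at the gene of the growth factor FGF18 on chromosome 5. Erythroid cells fill with globin, build heme and put a protein skeleton under their membrane. Megakaryocytes, their sister lineage, carry platelet integrins, granule proteins and a tubulin of their own.

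Transcript estimates were summed to genes and are given as CPM, counts scaled to the same library size after TMM normalisation. The gene totals were 98507880 and 92044185 estimated counts in S1KO, 79320794 and 76457904 in S2KO, 55913728 and 59444567 in DKO and 81110324 and 87678181 in EV. A gene was called at an adjusted p under 0.05 in edgeR's quasi-likelihood test with Benjamini-Hochberg adjustment over 21285 genes. The same test was also run with the replicate number as a block (replicate 1 against replicate 1, replicate 2 against replicate 2) over S1KO, S2KO and EV. A fold change is on the log2 scale, S1KO over S2KO, with its standard error after the ± sign. Level values are given for each library, replicate 1 before replicate 2.

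The K562 identity of all 4 libraries was visible in the markers. The 10 erythroid markers summed to 16464.3 and 9094.1 CPM in S1KO, against 12560.9 and 5769.8 CPM in S2KO. They summed to 16826.9 and 19747.6 CPM in DKO, against 6090.7 and 2553.9 CPM in EV. In S1KO, S2KO and EV the library numbered 1 was the higher one. In such bulk RNA, fewer cells of a kind and less RNA per cell cannot be told apart. Of the markers of other cells, most were low in these 4 libraries. No count was found for GP9 and GP1BA of megakaryocytes, for TPSAB1 of mast cells or for MS4A1 of B cells, and MPO of granulocytes was at most 0.0526 CPM. Markers that reached 2 CPM were TUBB1 and ITGA2B of 8 for megakaryocytes, LYZ and SPI1 of 7 for granulocytes and monocytes, MS4A2 of 4 for mast cells, CD3D of 7 for lymphocytes, and EPCAM, KRT19, PECAM1 and COL1A2 of 8 for epithelial, endothelial and fibroblast cells. EPCAM and KRT19 were the highest of these, at 46.3 to 107.4 CPM.

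Promoter sequences are shown for 4 genes on which the comparison turns, each from 250 bases before to 50 bases after the RefSeq start in GRCh38.p14. SCG3 had the highest level among the 12 largest rises, C5orf58 differed most at the silencer locus, and ZNF730 and ZNF91 belong to a family with several members lower in S1KO. In SCG3 the capitals mark TTCAGCACC and GGACAGCGC, the 2 parts of the REST binding element. In C5orf58 they mark AGATAAG, which GATA factors bind. In ZNF730 and ZNF91 they mark the longest run the pair shares.
SCG3 (chr15:51681253-51681552, plus strand): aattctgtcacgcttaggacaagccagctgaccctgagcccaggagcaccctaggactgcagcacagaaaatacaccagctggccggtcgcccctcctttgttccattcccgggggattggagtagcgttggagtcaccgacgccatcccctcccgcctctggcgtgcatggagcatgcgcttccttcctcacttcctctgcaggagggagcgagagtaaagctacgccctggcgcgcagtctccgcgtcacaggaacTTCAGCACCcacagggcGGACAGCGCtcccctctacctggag
C5orf58 (chr5:170232735-170233034, plus strand): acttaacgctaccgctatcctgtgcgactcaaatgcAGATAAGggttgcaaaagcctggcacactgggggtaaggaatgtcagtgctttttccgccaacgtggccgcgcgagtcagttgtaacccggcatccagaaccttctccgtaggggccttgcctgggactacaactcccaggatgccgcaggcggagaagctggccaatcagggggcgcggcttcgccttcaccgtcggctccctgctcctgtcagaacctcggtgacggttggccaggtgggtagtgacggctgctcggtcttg
ZNF730 (chr19:23116775-23117074, plus strand): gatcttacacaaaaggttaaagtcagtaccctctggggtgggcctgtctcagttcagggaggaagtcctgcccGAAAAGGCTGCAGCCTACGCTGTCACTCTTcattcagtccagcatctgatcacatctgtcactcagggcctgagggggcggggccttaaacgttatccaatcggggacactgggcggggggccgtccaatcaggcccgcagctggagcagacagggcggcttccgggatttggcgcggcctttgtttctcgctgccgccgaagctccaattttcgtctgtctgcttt
ZNF91 (chr19:23395422-23395721, minus strand): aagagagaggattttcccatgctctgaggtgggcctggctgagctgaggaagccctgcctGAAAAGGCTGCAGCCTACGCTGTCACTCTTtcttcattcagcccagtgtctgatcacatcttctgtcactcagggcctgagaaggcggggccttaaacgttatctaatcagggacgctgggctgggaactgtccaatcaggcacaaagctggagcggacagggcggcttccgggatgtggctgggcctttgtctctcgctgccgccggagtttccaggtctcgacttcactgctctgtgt

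Both parts of the REST element lie within the first bases of the SCG3 transcript, 8 bases apart. Counting both strands, TTCAGCACC occurred in 0.376% and GGACAGCGC in 0.581% of 35116 promoter windows. Both occurred on 1 strand in 6 windows, counted in any order and at any spacing, so this is no count of whole elements. The spacing in SCG3 was not compared with that of known REST elements. AGATAAG occurred in 2.68%. The run shared by ZNF730 and ZNF91 is 30 bases long, and an exact copy was found in no other window of the table. Runs nearly as long were shared with the promoter of ZNF724, 26 bases for ZNF730 and 28 bases for ZNF91. A match of letters is a description and shows no binding.

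At the silencer locus, FGF18 itself was close to silent after either excision, while C5orf58, 8 protein-coding genes away, was the largest rise among protein-coding genes of at least 2 CPM. FGF18 had 0.0615 and 0.0106 CPM in S1KO, 0.116 and 0.0263 CPM in S2KO, 0.274 and 0.258 CPM in DKO, and 0.114 and 0 CPM in EV. Its log2 fold change was -0.94 ± 1.40 with an adjusted p of 0.936 in edgeR, and without S2KO replicate 1 it was 0.45. S1KO, S2KO and EV overlapped, and DKO lay above all of them. A difference between S1KO and S2KO was not detectable at this level. C5orf58, an uncharacterised open reading frame, had 13.3 and 11.5 CPM in S1KO, against 0.0257 and 0.0394 CPM in S2KO. The S2KO values stand for 2 and 3 estimated counts. It had 16.4 and 17.0 CPM in DKO, against 0.202 and 0.251 CPM in EV. Thus all 4 libraries without silencer 1 were high, S2KO was the lowest group, and no groups overlapped. S1KO stood above S2KO by 8.51 ± 0.34 on the log2 scale (edgeR adjusted p = 0.000521), and the call held without each of the S1KO and S2KO libraries. Set against EV, C5orf58 was at 5.76 ± 0.28 in S1KO and at -2.74 ± 0.35 in S2KO, with edgeR adjusted p of 0.000274 and 0.0143. These contrasts share the EV libraries and called 3.67% of tested genes for S1KO and 2.01% for S2KO.

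Both other called genes of this neighbourhood were lowest in S2KO. LCP2, an adaptor of T cell and platelet receptors, had 19.6 and 33.2 CPM in S1KO, against 5.92 and 8.14 CPM in S2KO. Its 13.4 to 16.6 CPM in DKO lay between these, and its 21.4 and 23.7 CPM in EV lay within the S1KO range. The log2 fold change was 1.91 ± 0.31 with an edgeR adjusted p of 0.043, and the call was lost when any library of the 4 groups was left out (0.0819 to 0.193 for the S1KO and S2KO libraries). LCP2 and C5orf58 overlap on opposite strands. The libraries are stranded, but whether the authors' estimates used strand is not given in the sources used here. STK10, a kinase of the membrane skeleton proteins ezrin, radixin and moesin, had 19 and 20 CPM in S1KO, against 5.28 and 7.82 CPM in S2KO. DKO had 14.9 and 14.2 CPM and EV 14.0 and 13.5 CPM. The log2 fold change was 1.57 ± 0.23 (edgeR adjusted p = 0.0296), and it kept the call without S2KO replicate 2 alone among the S1KO and S2KO libraries (0.0378 to 0.193).

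Of FGF18 and the 15 protein-coding genes on either side of it, 23 were tested, and 3 were called, all higher in S1KO. The background is 0.639% of all tested genes called higher and 0.691% called lower, or 1.33% in either direction. With the replicate number as a block 6 of these genes passed, all higher, against 3.95% of all tested genes, and with that block over all excision libraries 3 passed. NPM1, the next gene to FGF18 and a nucleolar chaperone, had 2479.5 and 1855.6 CPM in S1KO, against 2150.0 and 1537.4 CPM in S2KO, and was not called. LINC01366, a noncoding RNA near the locus that was picked after its values were seen, had 3.22 and 5.27 CPM in S1KO, against 1.43 and 1.68 CPM in S2KO (edgeR adjusted p = 0.104 without and 0.0108 with the block). FBXW11, a substrate receptor of a ubiquitin ligase on the other side, had 38.6 and 48.6 CPM in S1KO, 39.8 and 50.5 CPM in S2KO, 23.1 and 23.4 CPM in DKO, and 57.1 and 75 CPM in EV. Its S1KO and S2KO libraries overlapped.

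**Figure D1:**
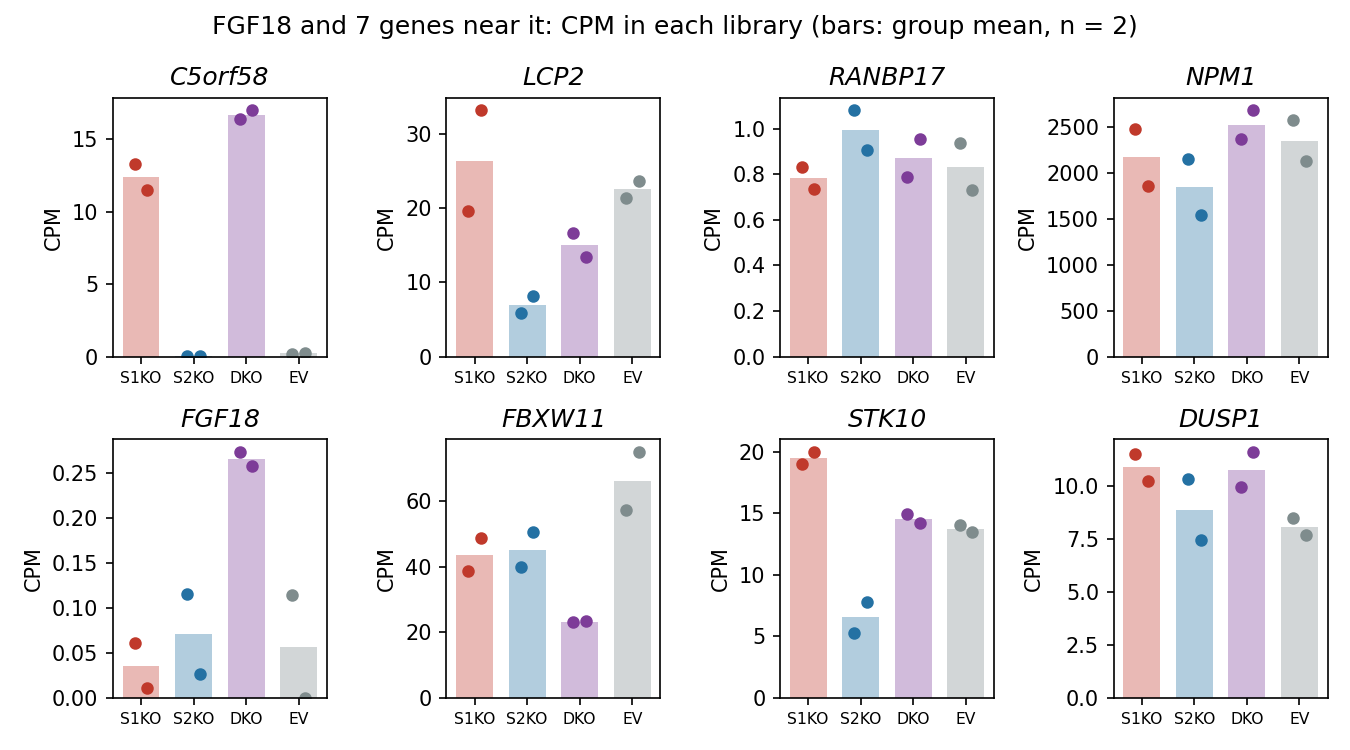
CPM (vertical axis, linear, from 0) of FGF18 and 7 genes near it in gene order, for S1KO, S2KO, DKO and EV. Points are libraries and bars are group means (n = 2). C5orf58 is near 0 in S2KO and EV, LCP2 and STK10 are lowest in S2KO, and FGF18 stays under 0.3 CPM in every library.

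Across all genes, 283 of 21285 were called between the single excisions, 136 higher and 147 lower in S1KO. They comprised 218 protein-coding genes, 48 long noncoding RNAs, 16 pseudogenes and 1 other gene. In all 283 the S1KO and S2KO libraries did not overlap, which was so for 34.6% of the tested genes, and the median size of the called changes was 3.06 on the log2 scale. The number of calls depended on single libraries. It was 29 without S1KO replicate 1, 40 without S1KO replicate 2, 142 without S2KO replicate 1 and 110 without S2KO replicate 2. Of the 283, 28 held in all 4 of these fits and 142 in none. The number of calls was also lower without DKO replicate 1 and without DKO replicate 2. The DKO libraries enter the estimate of spread, the filter and the scaling, but not the group means compared. Of the 57 called genes chosen for naming, 44 lost their call without S1KO replicate 1 and 40 without S1KO replicate 2, with the same direction. With the replicate block over S1KO, S2KO and EV, 1811 genes passed, 816 higher and 995 lower (8.78% of 20634), and the 283 were among them. With the block over all 8 excision libraries 575 passed, 275 higher and 300 lower, or 2.7% of the 21285, with 1.29% higher and 1.41% lower. Counts with the block refer to S1KO, S2KO and EV unless all excision libraries are named. Their background over all genes is 3.95% higher and 4.82% lower.

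The called genes were placed against the other groups by description. The same counts were not made over all genes, so these have no background, and the DKO and EV libraries entered the fit that made the calls. Of 88 called protein-coding genes of at least 2 CPM that were higher in S1KO, the DKO mean was nearer on the log2 scale to S1KO for 78 and nearer to S2KO for 10. The EV mean was nearer to S1KO for 20 and nearer to S2KO for 68. Of the 75 that were lower in S1KO, the DKO mean was nearer to S1KO for 53 and to S2KO for 22, and the EV mean was nearer to S1KO for 32 and to S2KO for 43.

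Among the 12 largest rises, SCG3, a granule protein of neurons and endocrine cells, had the highest level. It had 571.8 and 576.6 CPM in S1KO, against 7.22 and 7.79 CPM in S2KO. DKO had 201.2 and 175.9 CPM and EV 3.12 and 2.48 CPM. S1KO was thus 76.5-fold above S2KO, DKO stood between them, and S2KO was itself above EV. The log2 fold change was 6.26 ± 0.20 with an edgeR adjusted p of 0.000272, which stayed under 0.05 without each S1KO or S2KO library. SCG3 overlaps 2 noncoding genes on the opposite strand.

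ZPLD1, a membrane protein with a zona pellucida domain, had 12.8 and 17.3 CPM in S1KO, against 0.0644 and 0.0789 CPM in S2KO. DKO was low as well, at 0.137 and 0.0646 CPM, against 0.0379 and 0.0597 CPM in EV. High ZPLD1 was therefore seen in S1KO and in none of the other groups (log2 7.68 ± 0.47, edgeR adjusted p = 0.00212). EFEMP1, an extracellular matrix glycoprotein of the fibulin family, had 40.2 and 47.7 CPM in S1KO, against 1.56 and 1.93 CPM in S2KO. DKO had 39.6 and 38.0 CPM and EV 0.0506 and 0.0717 CPM, so S2KO lay between EV and the other excisions (log2 4.65 ± 0.22, edgeR adjusted p = 0.000782). LYVE1, a hyaluronan receptor of lymphatic vessels, had 5.54 and 7.52 CPM in S1KO, against 0.142 and 0.118 CPM in S2KO. It overlaps MRVI1 on the same strand, so reads of the pair may be shared. The remaining rises among the 12 largest were ZNF302, GCA (a calcium-binding protein of neutrophils), EGFLAM (a matrix protein of photoreceptor synapses), COBLL1, TMTC2, KRT12 (a keratin of the cornea) and GRAMD2B. Their log2 fold changes ran from 4.44 in GRAMD2B to 4.99 in ZNF302. In each of them DKO was above S2KO and EV in every library.

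Among the falls, the steadiest was ST8SIA4, which adds polysialic acid to surface proteins. It had 0.205 and 0.213 CPM in S1KO, against 11.7 and 12.1 CPM in S2KO. DKO had 0.445 and 0.582 CPM and EV 0.987 and 1.15 CPM. The fitted change was -5.82 ± 0.31 (edgeR adjusted p = 0.0014), and S2KO stood above all other groups. SLC16A9, a carrier of the monocarboxylate transporter family, had 0.779 and 1.04 CPM in S1KO, against 23.7 and 24.2 CPM in S2KO. DKO and EV lay between, at 8.93 and 10.6 CPM in DKO and at 8.65 and 13.2 CPM in EV. SLC16A9 and ST8SIA4 were called in each of the 4 fits that left out an S1KO or S2KO library.

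ZNF521, a zinc finger factor of immature blood cells, had 0.102 and 0.0213 CPM in S1KO, against 4.54 and 8.31 CPM in S2KO. DKO had 0 and 0.0485 CPM and EV 42.3 and 44.7 CPM, so every excision group was below EV. PRR16, which has been tied to cell size, had 0.102 and 0.0319 CPM in S1KO, against 6.63 and 13.6 CPM in S2KO. Its DKO values of 0.0171 and 0.0969 CPM were near S1KO, and its EV values of 6.22 and 11.5 CPM were near S2KO. Both lost the call without S1KO replicate 1 and without S1KO replicate 2, with adjusted p up to 0.095 for ZNF521 and 0.13 for PRR16. FAM133A on the X chromosome had 0.328 and 0.362 CPM in S1KO, against 9.66 and 15.3 CPM in S2KO. Here DKO, at 9.26 and 8.42 CPM, was near S2KO, against 0.772 and 1.05 CPM in EV.

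The other falls among the 12 largest were HIST1H2BK, MYO1H (a myosin), MS4A2, HKR1, ZNF829, SLC6A19 (a carrier of neutral amino acids) and ABCA13. MYO1H had 3 counts in S1KO, against 891 in S2KO, a ratio of 370.0 in favour of S2KO with a 95% counting interval of 126.2 to 1797.7. HIST1H2BK, a histone H2B gene, was listed at 0 in S1KO and DKO, against 36.7 and 33.5 CPM in S2KO and 109.0 and 42.1 CPM in EV. Taking 3 counts over the group as the floor, it was at least 2243-fold lower in S1KO than in S2KO. Histone genes are near copies of each other, and how the estimates divided reads among them was not tested, so this value is uncertain.

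**Figure D2:**
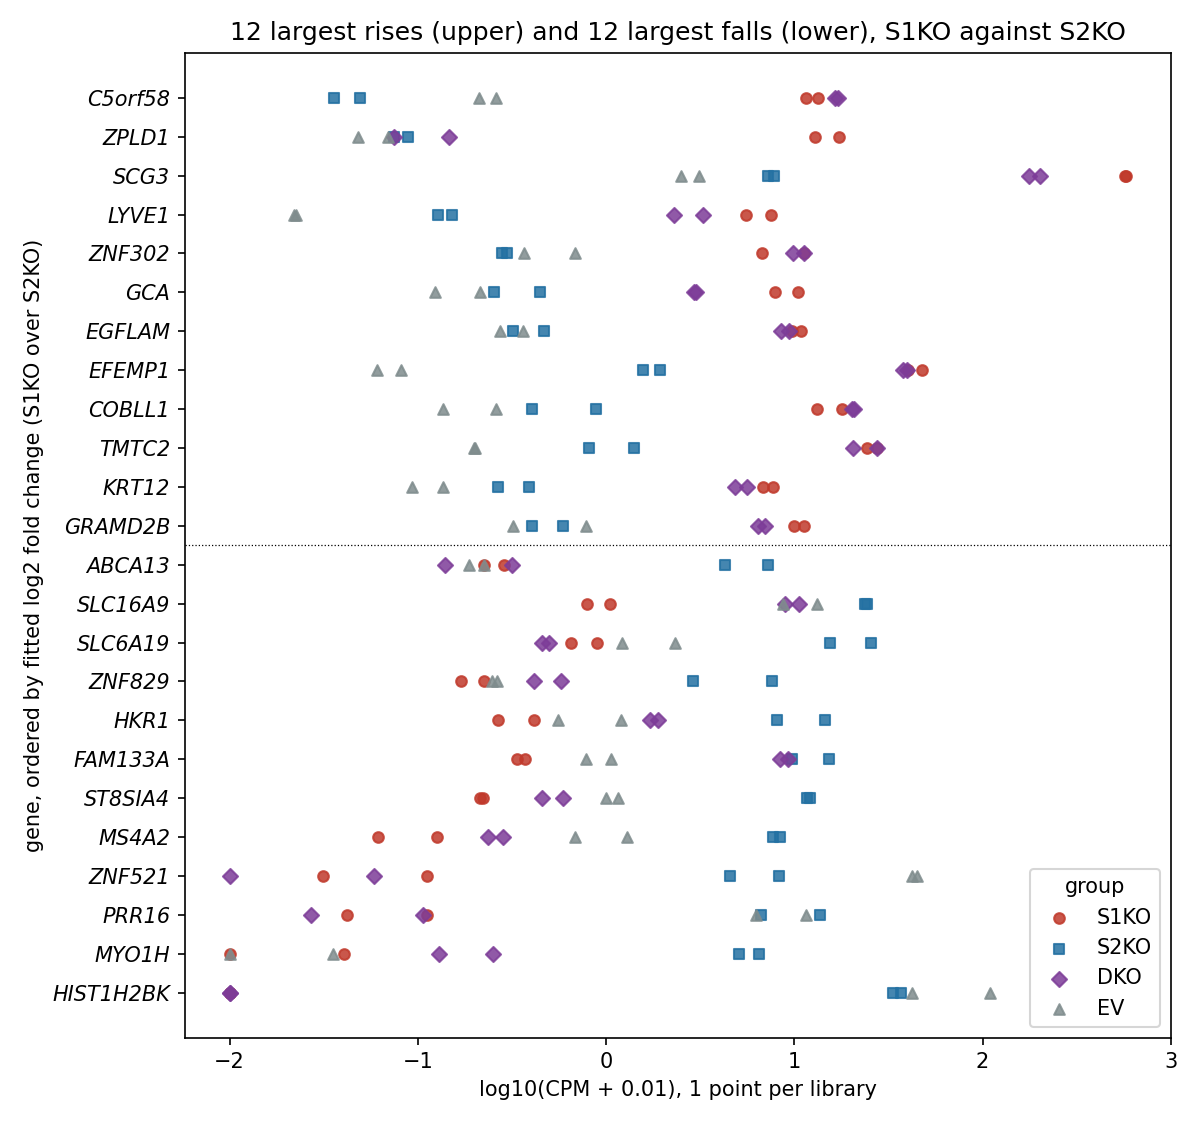
Level of the 12 largest rises (above the dotted line) and 12 largest falls (below it) in each library, as log10(CPM + 0.01), with genes ordered by the fitted log2 fold change of S1KO over S2KO. Each point is a library. DKO points lie near S1KO for most rises, ZPLD1 being the exception, and S2KO points stand alone at the right for ST8SIA4, MS4A2 and SLC16A9.

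Erythroid genes did not move as one program. No globin gene was called (0 of 11 tested), with a list median of 0.42 on the log2 scale against 0.00 over all genes. With the replicate block 4 passed, all higher in S1KO, against 3.95% of all genes called higher with the block. They were HBG1, HBD, HBB and AHSP, the chaperone of alpha globin. None passed with the block over all excision libraries, and 1 passed at the fewest when an S1KO or S2KO library was left out of the smaller block fit. HBE1, the embryonic beta-like globin, had 4608.2 and 2974.6 CPM in S1KO, against 2669.7 and 1519.3 CPM in S2KO. It had 5966.9 and 6693.8 CPM in DKO, against 97.0 and 169.4 CPM in EV. S1KO was above S2KO in both replicate numbers (log2 0.86 ± 0.38), yet the edgeR adjusted p was 0.497 without and 0.43 with the block. The fetal globin gene HBG2 had 6332.4 and 3315.3 CPM in S1KO, against 5064.2 and 2122.2 CPM in S2KO, and so its groups overlapped. HBB, the adult beta globin, was low, with 2.15 and 1.32 CPM in S1KO, against 0.644 and 0.289 CPM in S2KO (edgeR adjusted p = 0.275 without and 0.0099 with the block). AHSP had 21.5 and 8.42 CPM in S1KO, against 6.4 and 2.71 CPM in S2KO (edgeR adjusted p = 0.548 without and 0.00549 with the block).

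Alpha-like globins showed no such order. HBZ, the embryonic member, had 239.1 and 109.2 CPM in S1KO, against 343.6 and 81.4 CPM in S2KO, so that S1KO was lower in replicate 1 and higher in replicate 2. HBA1 had 424.4 and 244.2 CPM in S1KO, against 497.4 and 161.8 CPM in S2KO, the same crossing. HBA1 and HBA2 are near copies of each other, as are HBG1 and HBG2, so the split of reads within each pair is uncertain. The 5 beta-like globin genes lie inside a stretch of chromosome 11 that was higher in S1KO as a whole, with a median of 0.44. The other 6 members had a median of -0.17, and AHSP alone among them passed with the block.

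The list of red cell membrane genes, which also holds the cytosolic carbonic anhydrases CA1 and CA2, gave lower calls alone. Of 25 tested, CA1 and CA2 alone were called, both lower in S1KO, and no membrane protein gene was. With the block 10 passed, CA1 and CA2 among them, all lower, against 4.82% of all genes called lower with the block. With the block over all excision libraries 5 passed, and 8 at the fewest when 1 S1KO or S2KO library was left out of the block over S1KO, S2KO and EV. The median of the list was -0.58, with 18 members lower and 5 higher in both replicate numbers. CA1, the carbonic anhydrase of red cells, had 3.91 and 3.13 CPM in S1KO, against 46.0 and 53.4 CPM in S2KO. It had 22.4 and 36.1 CPM in DKO, against 2.26 and 2.44 CPM in EV. CA1 was thus high in both groups without silencer 2, and S1KO stayed close to EV (log2 -3.82 ± 0.29, edgeR adjusted p = 0.00372). CA2, its neighbour in the genome, had 0.523 and 0.277 CPM in S1KO, against 4.26 and 3.60 CPM in S2KO, with the same order of groups (edgeR adjusted p = 0.0188). CA1 lost the call without either S1KO library (up to 0.0546), and CA2 without any S1KO or S2KO library (up to 0.127).

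Those that passed with the block alone included SLC4A1 (band 3, the anion exchanger) and its partner EPB42, ANK1 (ankyrin, which ties the skeleton to the membrane), GYPE, the blood group gene ERMAP and CD36, a fatty acid receptor. SLC4A1 had 0.891 and 1.03 CPM in S1KO, against 2.90 and 6.13 CPM in S2KO. EPB42 had 0.687 and 0.596 CPM in S1KO, against 3.98 and 5.61 CPM in S2KO. Both genes were lower in S1KO in both replicate numbers. GYPE, ANK1 and ERMAP lie inside stretches of chromosomes that were lower in S1KO as a whole. Outside all stretches 6 of 15 members passed with the block, CA1 and CA2 among them, all lower, with a median of -0.38.

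Heme and iron genes gave 1 call in 20. SLC25A37 (mitoferrin, which brings iron into mitochondria) had 140.6 and 113.9 CPM in S1KO, against 254.2 and 313.4 CPM in S2KO, with 281.9 and 290.0 CPM in DKO and 169.2 and 183.6 CPM in EV. Its log2 fold change was -1.16 ± 0.17 (edgeR adjusted p = 0.0339, and 0.0561 to 0.248 without single libraries). It lies in a stretch of chromosome 8 whose median was -0.52. DKO had a low median in that stretch too, while its SLC25A37 was as high as in S2KO. ALAS2, the erythroid enzyme that starts heme synthesis, had 61.1 and 48.4 CPM in S1KO, against 64.3 and 122.4 CPM in S2KO, and 129.6 and 180.0 CPM in DKO, against 11.7 and 13 CPM in EV. S1KO and S2KO did not overlap for ALAS2, and it was not called (edgeR adjusted p = 0.467). TFRC, the transferrin receptor, differed more between replicate numbers than between excisions, with 1260.5 and 432.1 CPM in S1KO, against 1275.4 and 467.6 CPM in S2KO.

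None of the 16 erythroid transcription factors and cofactors was called, and 1 passed with the block. GATA1, the master factor, had 113.1 and 98.2 CPM in S1KO, against 104.6 and 92.6 CPM in S2KO. KLF1, which drives globin and membrane genes, had 145.4 and 87.6 CPM in S1KO, against 154.2 and 85.5 CPM in S2KO. The groups of both genes overlapped. LMO2, a bridging partner of GATA1, had 70.9 and 40.7 CPM in S1KO, against 130.0 and 56.3 CPM in S2KO (edgeR adjusted p = 0.768 without and 0.0141 with the block).

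No megakaryocyte gene was called without the block (0 of 17 tested). With it 8 passed, all higher in S1KO, against 3.95% of all genes called higher with the block. With the block over all excision libraries 1 passed, LTBP1, and 6 at the fewest when an S1KO or S2KO library was left out of the smaller block fit. The list median was 0.92, and 13 of the 17 were higher in both replicate numbers, as were 7159 of all 21285 tested genes. ITGA2B, the alpha chain of the platelet fibrinogen receptor, had 13.2 and 22.3 CPM in S1KO, against 4.12 and 5.81 CPM in S2KO. It had 16 and 6.95 CPM in DKO, against 5.92 and 9.13 CPM in EV. The log2 fold change was 1.84 ± 0.48 (edgeR adjusted p = 0.182 without and 0.000208 with the block). TUBB1, the platelet beta tubulin, had 32.3 and 11.5 CPM in S1KO, against 11.5 and 3.01 CPM in S2KO. It had 51.0 and 46.7 CPM in DKO, against 0.708 and 0.155 CPM in EV, so all excision groups were above EV (edgeR adjusted p = 0.593 without and 0.000576 with the block). LTBP1, which stores TGF-beta in the matrix, had 91.5 and 75.1 CPM in S1KO, against 42.6 and 30.9 CPM in S2KO (edgeR adjusted p = 0.0788 without and 0.000231 with the block). RUNX1, a transcription factor of megakaryocytes and stem cells, had 53.4 and 112.7 CPM in S1KO, against 29.6 and 55.4 CPM in S2KO.

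The others that passed with the block were THBS1, GP1BB, GP6 and MMRN1. MMRN1, a platelet granule protein, had 97 counts in S1KO and none in S2KO, at least 26-fold higher in S1KO with 3 counts per group taken as the limit. Defining members stayed absent or low. PF4 had at most 0.0319 CPM in S1KO and 0 in S2KO, and ITGB3, the partner chain of ITGA2B, had 1.23 and 0.670 CPM in S1KO, against 0.167 and 1.26 CPM in S2KO, with overlapping groups. NFE2, which megakaryocytes share with erythroid cells, had 251.0 and 194.2 CPM in S1KO, against 216.4 and 145.7 CPM in S2KO.

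**Figure D3:**
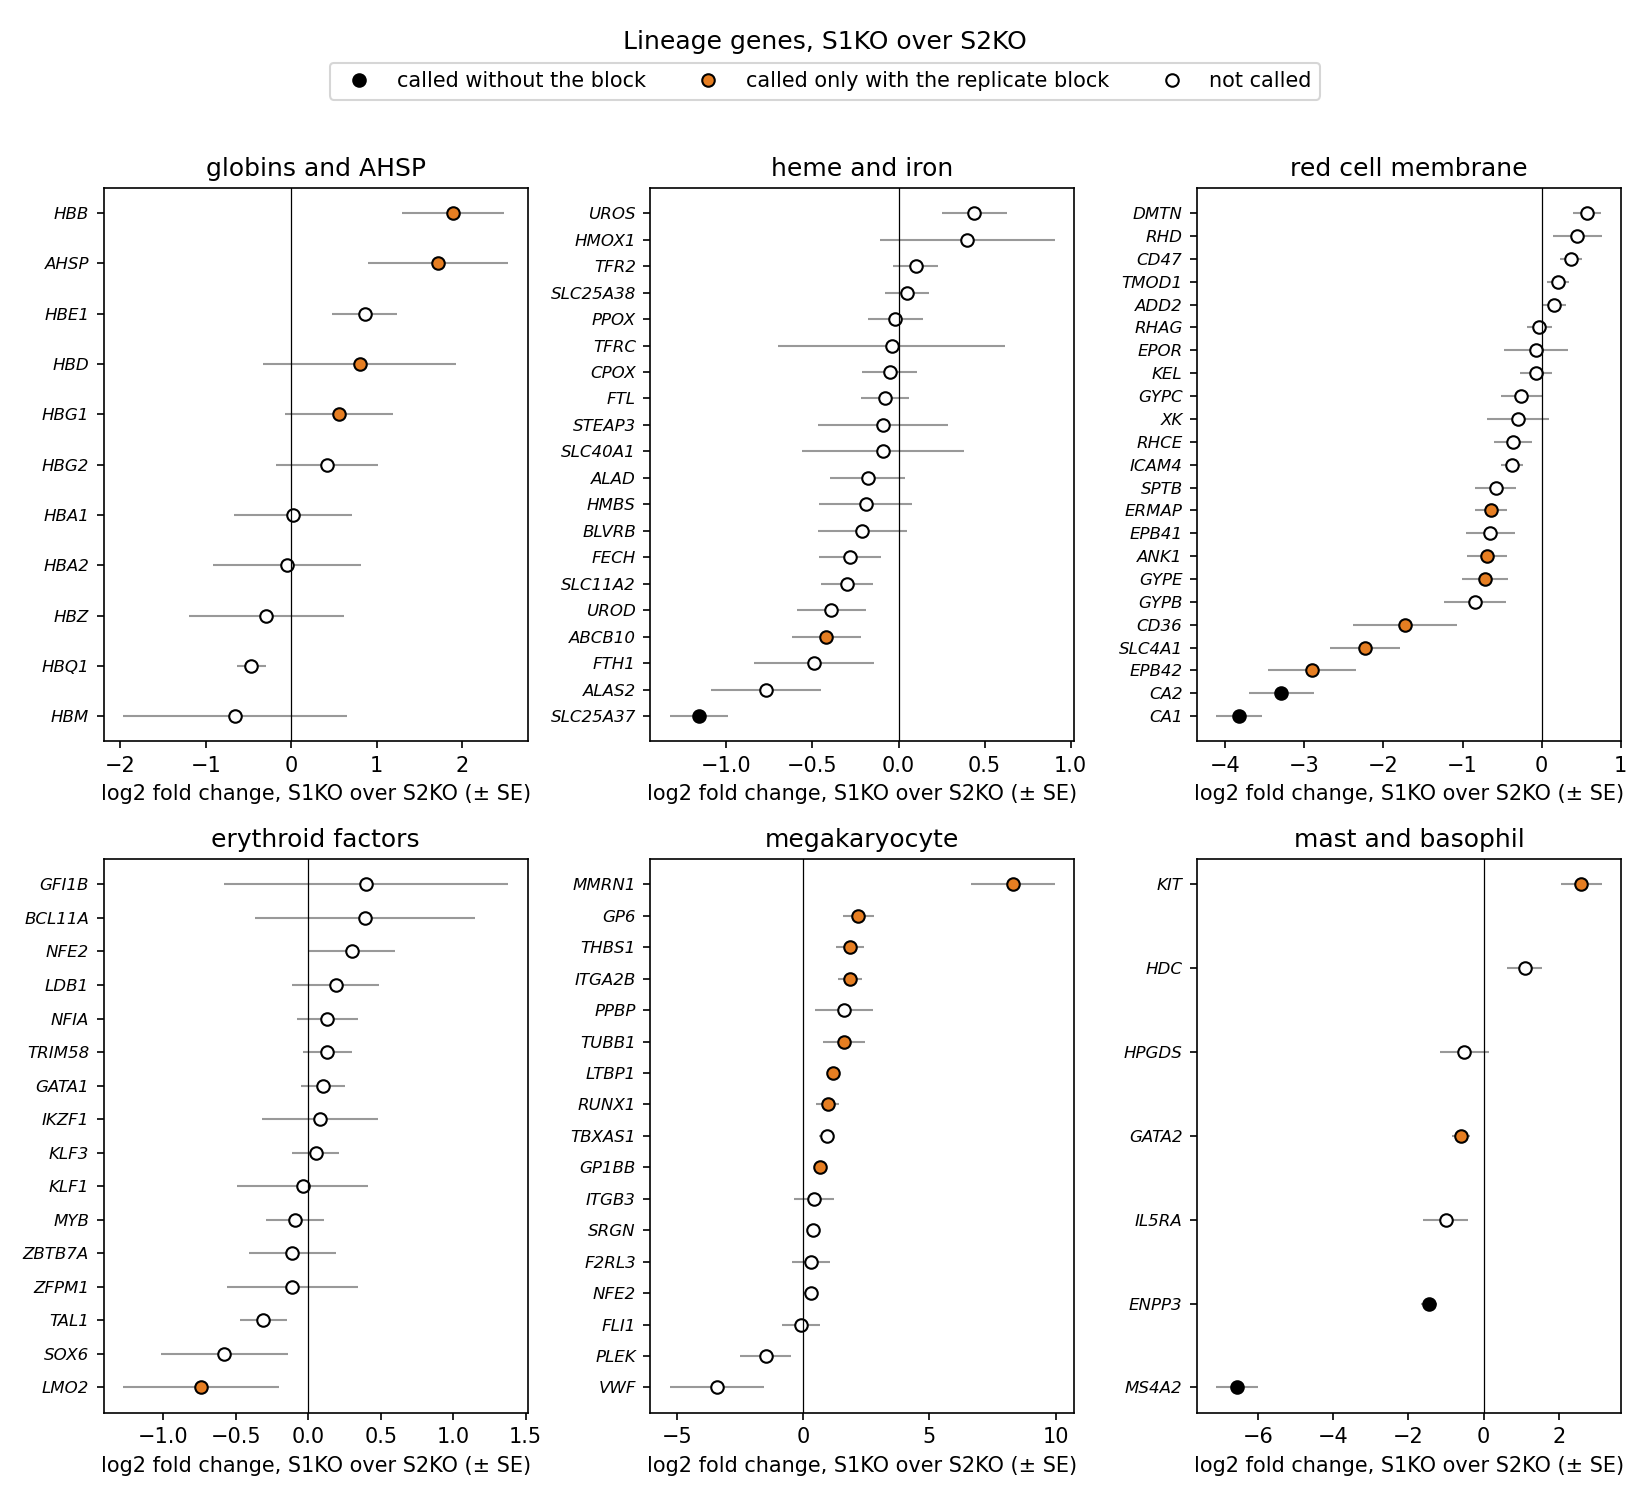
Log2 fold change of S1KO over S2KO (horizontal axis, ± standard error, from the fit without the block) for genes of 6 lineage lists, 1 gene per line, without members that are not reported here. Black points were called without the block, orange points passed only with the replicate number as a block, and white points passed neither. Orange points lie to the right of 0 in the globin and megakaryocyte panels and to the left of 0 in the red cell membrane panel. MMRN1 has no count in S2KO, so its plotted value depends on the model.

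Of 7 tested mast cell and basophil genes, 2 were called, both lower in S1KO. MS4A2, the beta chain of the IgE receptor, had 0.0512 and 0.117 CPM in S1KO, against 7.70 and 8.36 CPM in S2KO. DKO had 0.274 and 0.226 CPM and EV 0.670 and 1.28 CPM, so high MS4A2 was seen in S2KO and in none of the other groups. Its log2 fold change was -6.55 ± 0.55 (edgeR adjusted p = 0.00544). ENPP3, a surface enzyme of basophils, had 8.73 and 7.08 CPM in S1KO, against 24.0 and 19 CPM in S2KO, and 10.7 and 10.3 CPM in DKO, against 41.6 and 32.7 CPM in EV. GATA2, a factor of mast and progenitor cells, had 144.7 and 106.6 CPM in S1KO, against 223.5 and 157.2 CPM in S2KO (edgeR adjusted p = 0.418 without and 0.0123 with the block). KIT, the stem cell factor receptor that the same cells carry, went the other way at a low level, with 0.809 and 0.543 CPM in S1KO, against 0.116 and 0.105 CPM in S2KO. The call of MS4A2 was lost without S1KO replicate 1, and that of ENPP3 without any S1KO or S2KO library. Among the untested mast cell genes, TPSAB1 was at 0 and CPA3 at most at 0.0129 CPM.

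In the remaining blood lists, LYZ and MEIS1 were called. LYZ, the lysozyme of myeloid cells, had 58.3 and 45.4 CPM in S1KO, against 10.8 and 10.8 CPM in S2KO, with 26.9 and 20.8 CPM in DKO and 38.8 and 33.6 CPM in EV. S2KO was thus the lowest group (log2 2.26 ± 0.21, edgeR adjusted p = 0.00697). MEIS1, a homeobox factor of stem cells and megakaryocytes, had 16.3 and 11.9 CPM in S1KO, against 1.94 and 1.68 CPM in S2KO, with 9.48 and 8.24 CPM in DKO and 5.91 and 6.77 CPM in EV (log2 2.95 ± 0.26, edgeR adjusted p = 0.00572). Each lost its call without S1KO replicate 1, at 0.0618 for LYZ and 0.055 for MEIS1. No T, NK or B cell gene was called (0 of 10), and CD3D, at 12.2 and 10.1 CPM in S1KO, against 10.6 and 5.95 CPM in S2KO, overlapped between the groups.

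Genes of the repressors themselves were not called. None of 11 PRC2 genes and none of 13 genes of REST and its corepressors passed without the block. EED, the PRC2 subunit that reads methylated histone H3, had 82.7 and 63.3 CPM in S1KO, against 50.8 and 37.4 CPM in S2KO (edgeR adjusted p = 0.361 without and 0.00343 with the block). Of 21 tested neuronal REST targets, 2 were called higher, SCG3 and CALB1, and with the block 4 passed higher and 1 lower. The median of these targets was -0.09, so the list as a whole did not follow SCG3. CALB1, a calcium buffer of neurons, had 66.5 and 107.9 CPM in S1KO, against 12.1 and 23.1 CPM in S2KO, with 16.3 and 16.2 CPM in DKO and 4.28 and 6.08 CPM in EV. Its log2 fold change was 2.31 ± 0.38 (edgeR adjusted p = 0.0485, and 0.0546 to 0.243 without single libraries). SCN2A, a neuronal sodium channel, had 5.96 and 5.03 CPM in S1KO, against 0.335 and 0.854 CPM in S2KO, and was near 0 in EV, at 0 and 0.0478 CPM (edgeR adjusted p = 0.101 without and 0.00527 with the block). HOX genes (0 of 20) and Polycomb-repressed developmental factors (0 of 15) gave no call.

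Among 19 tested genes of FGF signalling and its feedback, SPRY1, an inhibitor of receptor kinase signalling, was called. It had 1.20 and 1.64 CPM in S1KO, against 0.270 and 0.329 CPM in S2KO, with 3.18 and 2.58 CPM in DKO and 0.342 and 0.550 CPM in EV (log2 2.24 ± 0.38, edgeR adjusted p = 0.0494). Every fit without an S1KO or S2KO library lost that call (0.168 to 0.268). Its relative SPRY2 had 9.28 and 6.4 CPM in S1KO, against 3.10 and 1.70 CPM in S2KO, and passed with the block (edgeR adjusted p = 0.124 without and 0.0008 with it). None of 22 tested genes of receptors and signalling in blood cells, inhibitors such as CISH and SOCS2 among them, was called. With the block 6 passed, all higher in S1KO, against 3.95% of all genes called higher with the block. They included the STAT targets CISH, SOCS2, PIM1 and PIM2. With the block over all excision libraries 1 passed. PIM2, a kinase that promotes survival, had 193.4 and 219.1 CPM in S1KO, against 83.2 and 101.9 CPM in S2KO (edgeR adjusted p = 0.0587 without and 0.00548 with the block). CISH, an inhibitor in the same pathway, had 140.0 and 187.1 CPM in S1KO, against 65.7 and 117.7 CPM in S2KO.

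In the TGF-beta and BMP list, 1 of 21 was called, TGFBR2, the type II receptor. It had 0.0410 and 0.106 CPM in S1KO, against 0.566 and 0.894 CPM in S2KO. DKO had 0.0342 and 0.0646 CPM and EV 17.0 and 15.1 CPM, so every excision group was below EV, and S1KO was below S2KO (log2 -3.29 ± 0.49, edgeR adjusted p = 0.0344). S2KO replicate 1 was the only S1KO or S2KO library that could be left out without losing this call. With the block 6 members passed higher, among them the targets ID1 and ID3. Another 5 passed lower, among them SMAD3, the signal carrier, and the co-receptor TGFBR3. Of all genes 3.95% passed higher and 4.82% lower with this block. With the block over all excision libraries 1 member passed higher and 1 lower. VIM, the intermediate filament of mesenchymal cells, showed a like order of groups with 122.2 and 143.0 CPM in S1KO, 251.1 and 329.0 CPM in S2KO, 115.7 and 95.9 CPM in DKO, and 908.6 and 1176.1 CPM in EV (edgeR adjusted p = 0.0743 without and 0.000265 with the block).

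Adhesion and matrix lists gave 1 call each. ITGB5, the beta chain of a vitronectin receptor, had 73.2 and 91.3 CPM in S1KO, against 27.4 and 23.7 CPM in S2KO, with 70.5 and 61.4 CPM in DKO and 4.74 and 4.60 CPM in EV (log2 1.69 ± 0.18, edgeR adjusted p = 0.0108). COL4A2, a collagen of basement membranes, had 8.88 and 8.70 CPM in S1KO, against 2.27 and 2.89 CPM in S2KO, and was called (edgeR adjusted p = 0.0169). Of these, ITGB5 lost its call without S1KO replicate 1, S1KO replicate 2 or S2KO replicate 2, and COL4A2 without any S1KO or S2KO library. COL1A2, a fibrillar collagen counted with the fibroblast markers, had 7.56 and 6.70 CPM in S1KO, against 0.579 and 0.342 CPM in S2KO, with 124.7 and 104.3 CPM in DKO and 0.430 and 0.346 CPM in EV. The log2 fold change of COL1A2 was 3.95 ± 0.28 (edgeR adjusted p = 0.0035), and the call held without each library. Its fibril partner COL1A1 had 0.758 and 0.756 CPM in S1KO, against 0.425 and 0.552 CPM in S2KO.

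Interferon-stimulated genes gave 1 call in 29, IFITM3, a membrane protein that blocks virus entry. It had 18 and 17.0 CPM in S1KO, against 6.33 and 4.90 CPM in S2KO (log2 1.64 ± 0.26, edgeR adjusted p = 0.0403, lost without any S1KO or S2KO library). IFITM3 and its neighbour IFITM1, which passed with the block, lie inside the high stretch of chromosome 11. MX2, another interferon gene, had 1.67 and 1.54 CPM in S1KO, against 4.27 and 6.93 CPM in S2KO, so the list did not move one way. Of the imprinted genes, 2 of 16 were called, both lower. MEG3, a noncoding RNA, had 0.0820 and 0.0532 CPM in S1KO, against 11.7 and 60.5 CPM in S2KO, and stayed under 0.3 CPM in DKO and EV. PLAGL1, a zinc finger factor, had 1.40 and 1.16 CPM in S1KO, against 11.5 and 8.06 CPM in S2KO, with 1.44 and 1.11 CPM in DKO and 15.2 and 16.5 CPM in EV. MEG3 and PLAGL1 lost their calls without S1KO replicate 1 and without S1KO replicate 2. DLK1, imprinted in the same cluster as MEG3 and read from the other parental copy, had 6.84 and 6.99 CPM in S1KO, against 1.78 and 3.19 CPM in S2KO (edgeR adjusted p = 0.0912 without and 0.00249 with the block).

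Further lists gave no call. Without the block no member was called among 30 mitosis genes, 30 DNA replication genes, 17 arrest and p53 genes, 25 apoptosis genes, 34 ATF4 targets, 20 endoplasmic reticulum chaperones, 22 NRF2 genes, 28 cholesterol genes, 31 hypoxia and glycolysis genes, 27 ribosome biogenesis factors or 13 mitochondrial genome mRNAs. Ribosome biogenesis, mitochondrial mRNAs, endoplasmic reticulum chaperones, immediate early genes and metallothioneins gave none with the block either. Of the ATF4 targets, 1 passed higher and 4 lower with the block, and none with the block over all excision libraries. Some of them differed more between replicate numbers than between excisions. PHGDH, an ATF4 target that starts serine synthesis, had 41.1 and 255.2 CPM in S1KO, against 51.8 and 508.8 CPM in S2KO, with 49.7 and 54.7 CPM in DKO and 64.4 and 525.3 CPM in EV. ATF5, another target, had 9.04 and 53.8 CPM in S1KO, against 15.9 and 170.3 CPM in S2KO. Both were lower in S1KO in both replicate numbers and passed with the block, with edgeR adjusted p of 0.0272 for PHGDH and 0.00517 for ATF5, but not with the block over all excision libraries (0.716 and 0.412). Histone genes gave 1 call in 19, HIST1H2BK. With the block 7 passed, all lower, against 4.82% of all genes, or 2 with the block over all excision libraries. The lists of WNT and NOTCH genes and cancer-testis antigens gave 1 call each. LGR4, a receptor that strengthens WNT signals, had 42.5 and 34.8 CPM in S1KO, against 16.1 and 15.5 CPM in S2KO (edgeR adjusted p = 0.0499). SSX2, a testis antigen with close copies on the X chromosome, had 13 and 16.4 CPM in S1KO, against 29.2 and 31.7 CPM in S2KO (edgeR adjusted p = 0.049). Both calls were lost without any S1KO or S2KO library.

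Several genes of these lists passed with the block alone. GADD45A, a stress gene of growth arrest, had 150.4 and 194.2 CPM in S1KO, against 93.3 and 103.4 CPM in S2KO (edgeR adjusted p = 0.141 without and 0.00204 with the block). BIRC3, an inhibitor of apoptosis in the NF-kB pathway, had 3.42 and 8.53 CPM in S1KO, against 0.489 and 1.55 CPM in S2KO (edgeR adjusted p = 0.256 without and 0.000201 with the block). The glucose carrier SLC2A3 was steadier, with 242.2 and 230.5 CPM in S1KO, against 140.6 and 141.0 CPM in S2KO, and 145.0 and 123.3 CPM in DKO, against 186.0 and 185.8 CPM in EV (edgeR adjusted p = 0.0633 without and 0.0021 with the block). TALDO1, an enzyme of the pentose phosphate pathway that lies in the high stretch of chromosome 11, had 543.5 and 550.4 CPM in S1KO, against 334.7 and 320.9 CPM in S2KO. BNIP3L, a mitophagy receptor that clears mitochondria from maturing red cells, was lower, with 25.7 and 37.1 CPM in S1KO, against 49.2 and 99.0 CPM in S2KO (edgeR adjusted p = 0.325 without and 0.000749 with the block). It lies in the low stretch of chromosome 8, as does the death receptor TNFRSF10A, at 38.1 and 31.9 CPM in S1KO, against 61.4 and 54.9 CPM in S2KO. MYC, the growth factor-induced transcription factor, had 263.0 and 223.9 CPM in S1KO, against 350.6 and 293.5 CPM in S2KO, and passed neither fit (0.411 without and 0.0542 with the block).

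Zinc finger genes of chromosome 19, which sit in clusters that arose by duplication, were a group chosen after their values were seen. Of 194 such genes of at least 2 CPM, 1 was called higher (ZNF302) and 9 lower (HKR1, ZNF829, ZNF728, ZNF730, ZNF91, ZNF676, ZNF724, ZNF527 and ZNF850). Among all protein-coding genes of at least 2 CPM the background is 0.821% called higher and 0.7% called lower. With the block 2 were higher and 39 lower, against 582 higher and 561 lower of all 10713 protein-coding genes of at least 2 CPM. Below 2 CPM, ZNF256 was called lower and ZNF835 higher. The median of the 194 was 0.00, with 64 members higher and 85 lower in both replicate numbers, against 4335 and 3018 of the 10713. With the block over all excision libraries 1 was higher and 19 lower, against 178 and 153 of the 10713. Outside chromosome 19, 206 zinc finger genes gave 0 higher and 2 lower calls without the block.

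ZNF91, a repressor of retroelements whose promoter is shown above, had 4.08 and 5.41 CPM in S1KO, against 28.3 and 41.5 CPM in S2KO, with 14.3 and 13.8 CPM in DKO and 6.57 and 8.70 CPM in EV. ZNF730, with the shared run, had 0.769 and 1.23 CPM in S1KO, against 8.90 and 17.9 CPM in S2KO, with 1.92 and 1.74 CPM in DKO and 0.0885 and 0.275 CPM in EV. ZNF728 had 0.471 and 0.702 CPM in S1KO, against 13.4 and 13.2 CPM in S2KO, and its call held without each S1KO and S2KO library, while ZNF91 and ZNF730 lost theirs without either S1KO library. S2KO was the highest group for each of these 3 genes. ZNF302 ran the other way, with 6.69 and 11.2 CPM in S1KO, against 0.270 and 0.289 CPM in S2KO, and 9.84 and 11.2 CPM in DKO, against 0.670 and 0.358 CPM in EV. On the X chromosome, the testis genes VCX, VCX3A and VCX3B were all called lower. VCX3A had 3.45 and 5.19 CPM in S1KO, against 62.7 and 114.3 CPM in S2KO, and 86.0 and 85 CPM in DKO, against 2.19 and 3.68 CPM in EV, so it was high in both groups without silencer 2. An overlapping pair on chromosome 11, C11orf21 and TSPAN32, read from opposite strands, was also picked after its values were seen. TSPAN32, a tetraspanin of blood cells, had 5.82 and 5.95 CPM in S1KO, against 0.682 and 0.881 CPM in S2KO, and 11.8 and 12 CPM in DKO, against 1.29 and 1.11 CPM in EV (edgeR adjusted p = 0.00567). The VCX genes are near copies, so their estimates cannot be taken as independent. The promoters of VCX3A and VCX3B share a run of 137 bases, while the longest run that VCX shares with either is 7 bases.

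Whole stretches of some chromosomes differed by small, even amounts. Genes of at least 2 CPM were taken in gene order in 256 windows of at least 40, and the median log2 fold change of a window had a median of 0.05. Neighbouring windows past 0.2 in size formed 9 stretches, 5 higher and 4 lower in S1KO, which held 9.92% of the 10700 genes. They held 14.1% of the 163 calls made without the block and 28.5% of the 1143 calls made with it. The stretches were picked by the same fold changes that the calls test, so these shares follow in part from that choice. In each stretch the median had the same sign in replicate 1 and in replicate 2, which also follows in part from that choice. DNA copy number was not measured in these files.

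The end of chromosome 5, beyond the silencer locus, was higher in S1KO. Of the 64 genes from ERGIC1 to TRIM52, 62 had a higher fitted value in S1KO, with a median of 0.47. For 43 of them both S1KO libraries were above both S2KO libraries, against 19.4% of all 10700 genes. This stretch was picked by the same fold change, so these counts describe it and add no support. Relative to the EV mean, the median was 0.04 and -0.09 in the S1KO libraries, -0.47 and -0.65 in the S2KO libraries and -0.59 and -0.58 in the DKO libraries. By these medians S1KO was level with EV, and the groups without silencer 2 were lower. Gene by gene, both S2KO libraries were below both EV libraries for 43 of the 64, both DKO libraries for 47 and both S1KO libraries for 17. In blocks of 16 genes from ERGIC1 to the end, the S1KO over S2KO medians were 0.45, 0.42, 0.51 and 0.47. The 20 expressed genes before FGF18, from LSM11 to NPM1, had a median of 0.24, with S1KO at 0.11 and 0.09, S2KO at -0.17 and -0.15 and DKO at 0.02 and 0.09 relative to EV. The first of the blocks from ERGIC1 on had -0.50 and -0.51 in DKO. Between NPM1 and ERGIC1 lie 3 expressed genes, FBXW11, STK10 and DUSP1.

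Further stretches were set apart by S1KO. On chromosome 8 the 120 genes from ZNF596 to ATP6V1H had a median of -0.52, with 106 lower. Relative to EV the S1KO libraries were at -0.50 and -0.45, the S2KO libraries at -0.07 and 0.00 and the DKO libraries at -0.60 and -0.63. On chromosome 18 the 40 genes from ZNF519 to HAUS1, ZNF521 among them, had a median of -0.43, with S1KO at -0.43 and -0.44, S2KO at -0.04 and 0.01 and DKO at -0.60 and -0.61. On chromosome 1 the 400 genes from NOC2L to MAGOH had a median of -0.30, with S1KO at -0.27 and -0.39, S2KO at 0.03 and -0.11 and DKO at -0.32 and -0.34. On chromosome 11 the 80 genes from BET1L to PPFIBP2, which include the beta-like globins, had a median of 0.44, with S1KO at 0.45 and 0.37, S2KO at 0.05 and -0.09 and DKO at 0.41 and 0.46. In these 4 stretches DKO was near S1KO. On chromosome 4 the 197 genes from THAP6 to FRG1 had a median of -0.33, with S1KO at -0.42 and -0.37, S2KO at -0.03 and -0.05 and DKO at -0.09 and -0.09, so here S1KO stood apart from DKO as well.

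The part of these stretches in the calls of single genes was not tested. Of the 24 largest changes, ZPLD1, EGFLAM, SLC6A19 and ZNF521 lie inside one, and SLC6A19 was lower in S1KO inside a higher stretch. Of the 283 calls, 276 exceeded 1 on the log2 scale and the smallest was 0.78. Changes of the size of the stretch medians were therefore not called without the block, and a comparison of sizes cannot tell what part the stretches had. Among genes inside a stretch that passed with the block alone, ANK1 was at -0.69 ± 0.25 and HBG1 at 0.56 ± 0.63.

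**Figure D4:**
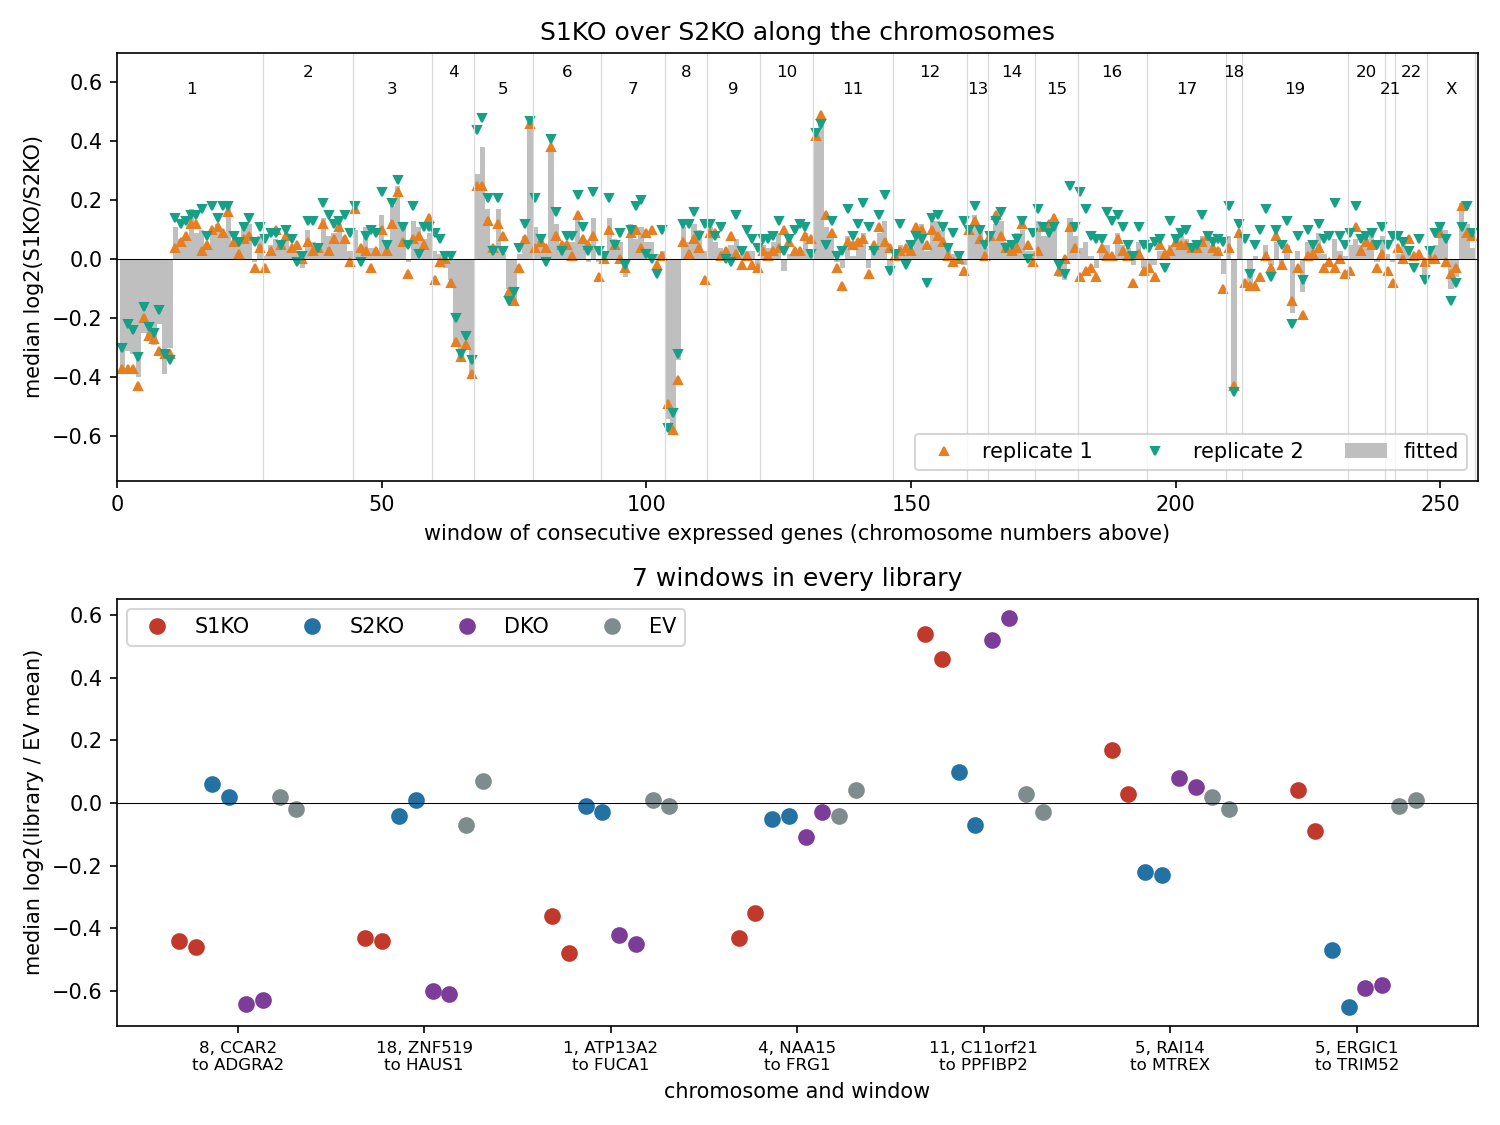
Upper panel, median log2 ratio of S1KO over S2KO (vertical axis) in 256 windows of consecutive expressed genes along the chromosomes, as fitted (grey bars) and in replicates 1 and 2 (triangles). Lower panel, median log2 ratio to the EV mean in 7 windows for each library of S1KO, S2KO, DKO and EV. The window from ERGIC1 to TRIM52 is low in S2KO and DKO, and the windows of chromosomes 8, 18 and 1 are low in S1KO and DKO.

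Libraries of S1KO, S2KO and EV that share a replicate number deviated together, and those of DKO did not. Over 21285 genes, the change of replicate 2 against replicate 1 correlated at 0.566 between S1KO and S2KO, at 0.488 between S1KO and EV and at 0.622 between S2KO and EV. With DKO the values were -0.0591 for S1KO, -0.0598 for S2KO and -0.0843 for EV. These correlations are across genes, which are not independent replicates. The labels do not say what the number stands for. Of the 10713 protein-coding genes of at least 2 CPM, 68.5% had the same sign of S1KO over S2KO in replicate 1 and replicate 2. All 163 called ones had it, which follows from their groups not overlapping and adds no support to the calls. C5orf58 had log2 ratios of 6.74 and 6.38 in replicates 1 and 2, SCG3 6.29 and 6.19, CA1 -3.52 and -4.05, and ITGA2B 1.66 and 1.92, computed with 0.1 CPM added.

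**Figure D5:**
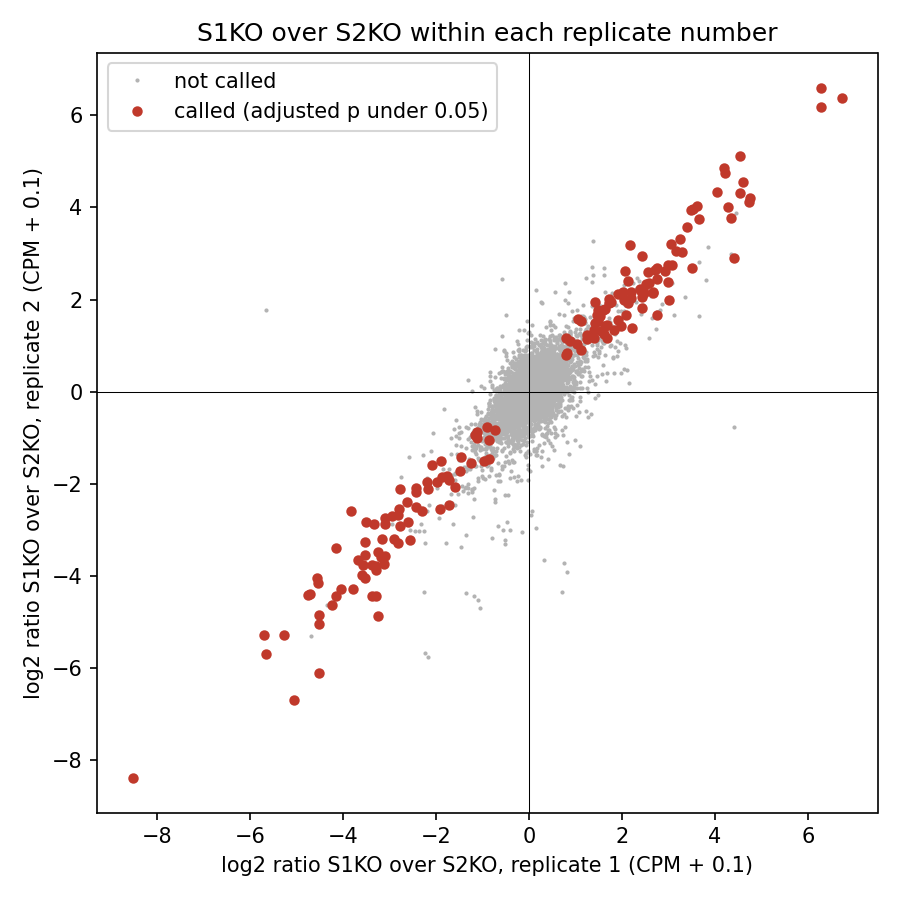
Log2 ratio of S1KO over S2KO (CPM + 0.1) in replicate 1 (horizontal axis) and replicate 2 (vertical axis) for protein-coding genes of at least 2 CPM. Red points were called without the block and grey points were not. All 163 red points lie in the 2 quadrants where both replicates have the same sign, which follows from their groups not overlapping.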

How the data were processed

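RNA was measured in K562 cells. Per the labels' protocols, stranded total RNA libraries were made after ribosomal RNA removal, and per the submitters' processing notes Trimmomatic 0.38, kallisto 0.44.0 and the build hg19 were used. The authors deposited estimated counts and TPM per transcript, and the annotation release is not given in the sources used here. Estimated counts were summed to genes through GENCODE 29 (names and types) and rounded. Its coordinates were used for gene order and for overlaps between genes. Of 215170 transcript identifiers 182238 (84.7%) matched, giving 53153 genes. The deposited TPM values were used in 1 alternative, as length-scaled counts.

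The 8 excision libraries were filtered with filterByExpr, scaled with TMM and fitted with 1 mean per group in the robust quasi-likelihood test of edgeR 4.0.16 under R 4.3.3, leaving 4 residual degrees of freedom and a biological coefficient of variation of 0.323. The fit with the replicate number as a block used S1KO, S2KO and EV and has 2 residual degrees of freedom. With 2 libraries on each side the smallest two-sided exact permutation p is 0.333, and all p-values depend on edgeR's model of the spread. If the libraries of a group are not separate cultures, p measures technical spread. The standard error is the size of the fitted change divided by the root of the F statistic. Intervals and floors cover counting error only.

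The text names, among called protein-coding genes that average at least 2 CPM and whose groups do not overlap, the 12 with the highest and the 12 with the lowest fold change, FGF18, then up to 4 called members of each of 42 lists and, in lists with none, the 2 members of lowest p. Other members named, the zinc finger and VCX groups and the windows were chosen after their values were seen. The members and lists were chosen with earlier results of these data known. Alternatives were RLE factors, no filter beyond 1 count, DESeq2 1.42.0, length-scaled counts, fewer groups, the block, a GC trend removed (loess span 0.3) and each library left out. The code was tested on simulated data. Some members of the lists are counted but not reported by name.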

Additional observations from a re-analysis of the deposited data

How the results depend on the processing

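The number of called genes (283, with 136 higher and 147 lower in S1KO) stayed within 1.5 times with RLE size factors (282), length-scaled TPM counts (205), no filter beyond 1 count (396) and the GC trend removed (287). It left that range with DESeq2 (1021, with 490 higher and 531 lower), with the S1KO and S2KO libraries alone (9, with 4 and 5) and with EV, S1KO and S2KO (82, with 38 and 44). The replicate block gave 575 calls over all excision libraries (275 higher and 300 lower), 1811 over EV, S1KO and S2KO (816 and 995) and 1713 over S1KO and S2KO alone (750 and 963). With the GC trend removed and the replicate block it gave 587 (284 and 303). Leaving out 1 library at a time gave 29 to 272 calls, 20 to 135 higher and 9 to 137 lower. With the block over EV, S1KO and S2KO, leaving out 1 library gave 1062 to 2950 calls, 518 to 1374 higher and 544 to 1576 lower, a setting chosen after seeing the data. FGF18 ranged from -2.57 without S1KO replicate 1 to 0.45 without S2KO replicate 1, a reversed sign, and was called in no setting. The labels do not say what the replicate numbers stand for, and DKO does not follow them, so the block is given beside the fit without it. The cause of these differences was not tested.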
